A study of Homo sapiens with 12 samples.

Results

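The small subunit of the cytosolic ribosome carries a set of proteins whose genes bear symbols beginning with RPS. Genes were taken where the symbol was RPSA or RPS followed by a number with an optional letter, and where the normalized count was 10 or more in at least 3 of the 12 libraries. This gave 31 of the 25369 genes in the tables, all of them among the 14627 genes tested and all matched by symbol in RefSeq. A further 3 symbols fit the pattern but were listed at 0 in all 12 libraries. The members closest to the limit were RPS16, which had at least 792 normalized counts in 3 libraries, RPS27L with 1404 and RPS21 with 3288.

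The series asked which RNAs travel with a fragment of TNIP2, a ubiquitin-binding adaptor that limits NF-kB signalling. HEK293T cells, a transfected line of embryonic kidney origin, were transfected with a fusion of the Halo tag and TNIP2 residues 196 to 346, or with the Halo tag alone. RNA was taken from material purified through the fused tag (TNIP2 Pulldown), from whole extract of the same transfection (TNIP2 Input), from material purified through the tag alone (Control Pulldown) and from whole extract of tag-only cells (Control Input), with 3 libraries in each of the 4 groups. Ribosomal RNA was removed before sequencing in every group. The construct is a fragment expressed from a plasmid, so the groups do not show what the whole endogenous protein carries. The labels name no separate transfections for the 3 libraries of a group. The p-values therefore measure spread between libraries that may be technical.

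Ribosomal protein genes are transcribed at high rates and their proteins are made in matched amounts, because each protein takes 1 place in each subunit. Most of their mRNAs in vertebrates begin with a C followed by a run of pyrimidines, the terminal oligopyrimidine start, through which their translation is regulated together when growth signals change. Free ribosomal proteins are degraded, and loss of 1 copy of several of these genes causes Diamond-Blackfan anemia.

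Start windows of 8 genes follow because they place a shared start element beside changes of opposite direction in the purified RNA. Each runs from 20 bases before to 20 bases after the annotated start, 5′ to 3′, from RefSeq on GRCh38.p14, with the pyrimidine run at the start in capitals. The first 4 genes rose and the last 4 fell in TNIP2 Pulldown over TNIP2 Input.
RPS24, chr10:78033843-78033882, plus strand: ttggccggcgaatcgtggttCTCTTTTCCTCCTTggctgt
RPS25, chr11:119018324-119018363, minus strand: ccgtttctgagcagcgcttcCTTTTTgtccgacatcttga
RPS27, chr1:153990742-153990781, plus strand: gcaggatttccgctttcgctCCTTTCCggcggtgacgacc
RPS6, chr9:19380217-19380256, minus strand: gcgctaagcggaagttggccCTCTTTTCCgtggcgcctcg
RPS12, chr6:132814549-132814588, plus strand: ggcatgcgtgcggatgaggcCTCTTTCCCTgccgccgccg
RPS9, chr19:54200838-54200877, plus strand: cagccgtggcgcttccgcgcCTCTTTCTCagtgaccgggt
RPSA, chr3:39406700-39406739, plus strand: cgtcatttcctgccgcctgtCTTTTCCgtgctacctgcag
RPS13, chr11:17077648-17077687, minus strand: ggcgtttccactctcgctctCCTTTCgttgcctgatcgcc

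A promoter entry was at hand for 25 of the 31 genes. A start with C as the first base and at least 4 further C or T bases stood in 18 of the 25, or 72%, against 1404 of 27305 RefSeq symbols, or 5.14%. It stood in 8 of 10 genes that rose and in 7 of 8 that fell, so both directions held it at shares of 80% and 87.5%. Among members that did not pass the test it stood in 3 of 7, and in 28 of 40 large subunit genes. The letters CCGGAA, searched on both strands of the 300-base promoter, stood in 7 of 10 genes that rose, 4 of 8 that fell, 5 of 7 that did not pass, 21 of 40 large subunit genes and 20.1% of all symbols. A match of letters is a description of the window and not a shown binding site.

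Values are the authors' normalized counts, which are relative to the other RNAs of a library. A lower value therefore cannot be told apart from a gain of other RNAs, and in whole extract fewer cells with a transcript cannot be told apart from less RNA per cell. Depth in reads recovered from the tables was 10310758 to 29521695 in TNIP2 Pulldown, 8899319 to 16740382 in TNIP2 Input, 3591166 to 6403821 in Control Pulldown and 13779855 to 20773981 in Control Input. Apart from RPS16, no member had fewer than 403 reads in any library. The columns of the fusion carry a letter that the labels do not explain and were assigned by elimination. The TNIP2 transcript itself, part of which the plasmid carries, was higher in TNIP2 Input than in Control Input by 6.26 on the log2 scale. It was uneven, with normalized counts of 51905, 69806 and 193013 in TNIP2 Pulldown and 16750, 13318 and 46568 in TNIP2 Input. In Control Pulldown it had 1472, 309 and 391. Whether its higher level in the TNIP2 libraries numbered 3 bears on other genes was not tested. On the first principal component of all genes, scores were 94.9 to 112.2 in TNIP2 Pulldown and -37.5 to -29.3 in the other 9 libraries. On the second, TNIP2 Pulldown 3 and TNIP2 Input 3 stood apart at 47.8 and 54.7, and counts without both are given with the results they change. All 6 markers of HEK293 cells were present, with summed normalized counts of 10670 to 11796 in TNIP2 Pulldown, 5349 to 7098 in TNIP2 Input, 5756 to 7143 in Control Pulldown and 6383 to 6968 in Control Input. The 4 epithelium markers were present too, with sums of 765 to 1186 over the 12 libraries. The 6 fibroblast and endothelium markers summed to 46 to 144. The 5 blood markers summed to no more than 21 in any library, with HBB and CD3E at 0.

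Small subunit genes split in the purified RNA, as genes in general did. In TNIP2 Pulldown over TNIP2 Input, 13 of the 31 rose and 9 fell (limma, adjusted p under 0.05), with RPS24 10.7-fold higher and RPS12 3.99-fold lower. Of all genes tested, 58.1% were called in this comparison, 29.8% higher and 28.3% lower, so a share of 71.0% of members called stands beside a high background. The median log2 fold change was 0.18 over the members and 0.01 over all genes tested. The split moved with the scaling of the libraries: quantile normalization gave 8 higher and 16 lower, and scaling to equal sums gave 12 and 12. The median of the members turned to -0.67 and -0.25 under these scalings, where 57.1% and 60.9% of all genes were called. Of the 22 calls, 15 held under each of the 24 other settings, 8 of them higher and 7 lower.

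**Figure D1:**
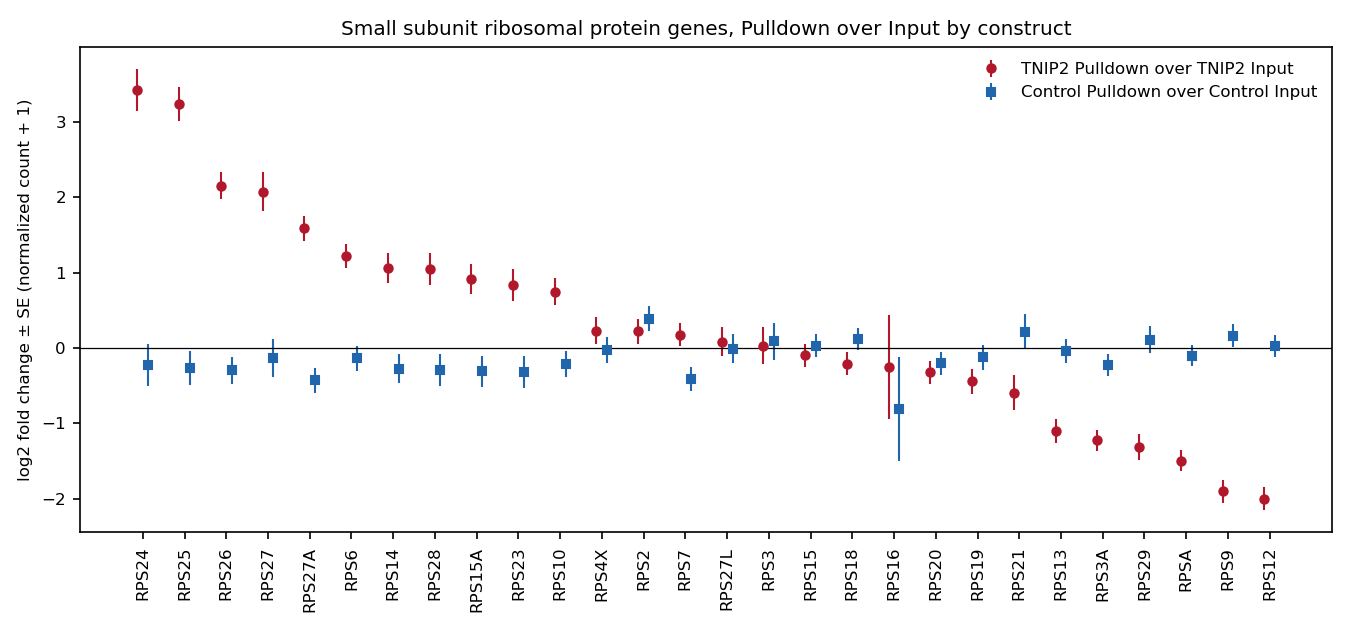
Log2 fold change ± SE of 28 of the small subunit genes, ordered by the change with the TNIP2 fragment (red circles, TNIP2 Pulldown over TNIP2 Input; blue squares, Control Pulldown over Control Input; 3 libraries per group). With the fragment RPS24 lies at 3.42 and RPS12 at -2.0, while with the tag alone no gene passed the test.

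RPS24 and RPS25 rose by large factors. RPS24, a protein of the body of the subunit and a Diamond-Blackfan anemia gene, had normalized counts of 197752, 237089 and 83149 in TNIP2 Pulldown and 15290, 14656 and 14130 in TNIP2 Input. In Control Pulldown it had 14712, 15431 and 16176, and in Control Input 19167, 18148 and 16983. Every TNIP2 Pulldown library lay above all 9 others, with TNIP2 Pulldown 3 the lowest of them, and the log2 fold change over TNIP2 Input was 3.42 (SE 0.28, adjusted p = 1.6e-07). Set against the Input of the same number, the ratio was 12.9, 16.2 and 5.88.

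RPS25, a head protein that several viral internal ribosome entry sites require, had 84784, 96714 and 45916 in TNIP2 Pulldown and 8224, 7297 and 7454 in TNIP2 Input. The other 9 libraries reached at most 10495, in Control Input 1, below the lowest TNIP2 Pulldown library. The change over TNIP2 Input was 3.24 (SE 0.23, adjusted p = 5.1e-08). For both genes TNIP2 Pulldown 3 was the lowest of the 3 libraries, and the groups did not overlap. In all, TNIP2 Pulldown lay above TNIP2 Input without overlap for 13 members and below it for 9, where 29.4% and 28.1% of all genes did so.

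RPS26, which lines the channel where mRNA leaves the subunit, and RPS27, a protein with a zinc finger, rose less. RPS26 had 7164, 7048 and 5040 in TNIP2 Pulldown and 1396, 1155 and 1784 in TNIP2 Input, for a log2 change of 2.15 (SE 0.18, adjusted p = 2.2e-07). RPS27 had 49735, 77281 and 28241 in TNIP2 Pulldown and 11840, 10902 and 11218 in TNIP2 Input, a change of 2.08 (SE 0.26, adjusted p = 7.5e-06). Their TNIP2 Pulldown libraries differed from each other more for RPS27 than for RPS26, and both stayed above every other library.

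RPS27A, made as a fusion of ubiquitin with a head protein, had 34485, 36667 and 24160 in TNIP2 Pulldown and 11369, 10050 and 9870 in TNIP2 Input, for a log2 change of 1.59. RPS6, the substrate of the S6 kinases, had 96169, 81111 and 67738 in TNIP2 Pulldown and 35923, 32794 and 35709 in TNIP2 Input, a change of 1.22 (SE 0.16, adjusted p = 1.4e-05). Smaller rises were seen for RPS14 at 1.06, RPS28 at 1.05, RPS15A at 0.92, RPS23, a protein of the decoding site, at 0.84, and RPS10 at 0.75. These 5 lost their calls under quantile normalization, and RPS10 also under equal sums. In RPS23 the third TNIP2 Pulldown library, at 13819, lay inside the Control Input range of 13609 to 14845 though above all 3 TNIP2 Input libraries, which reached 12290.

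**Figure D2:**
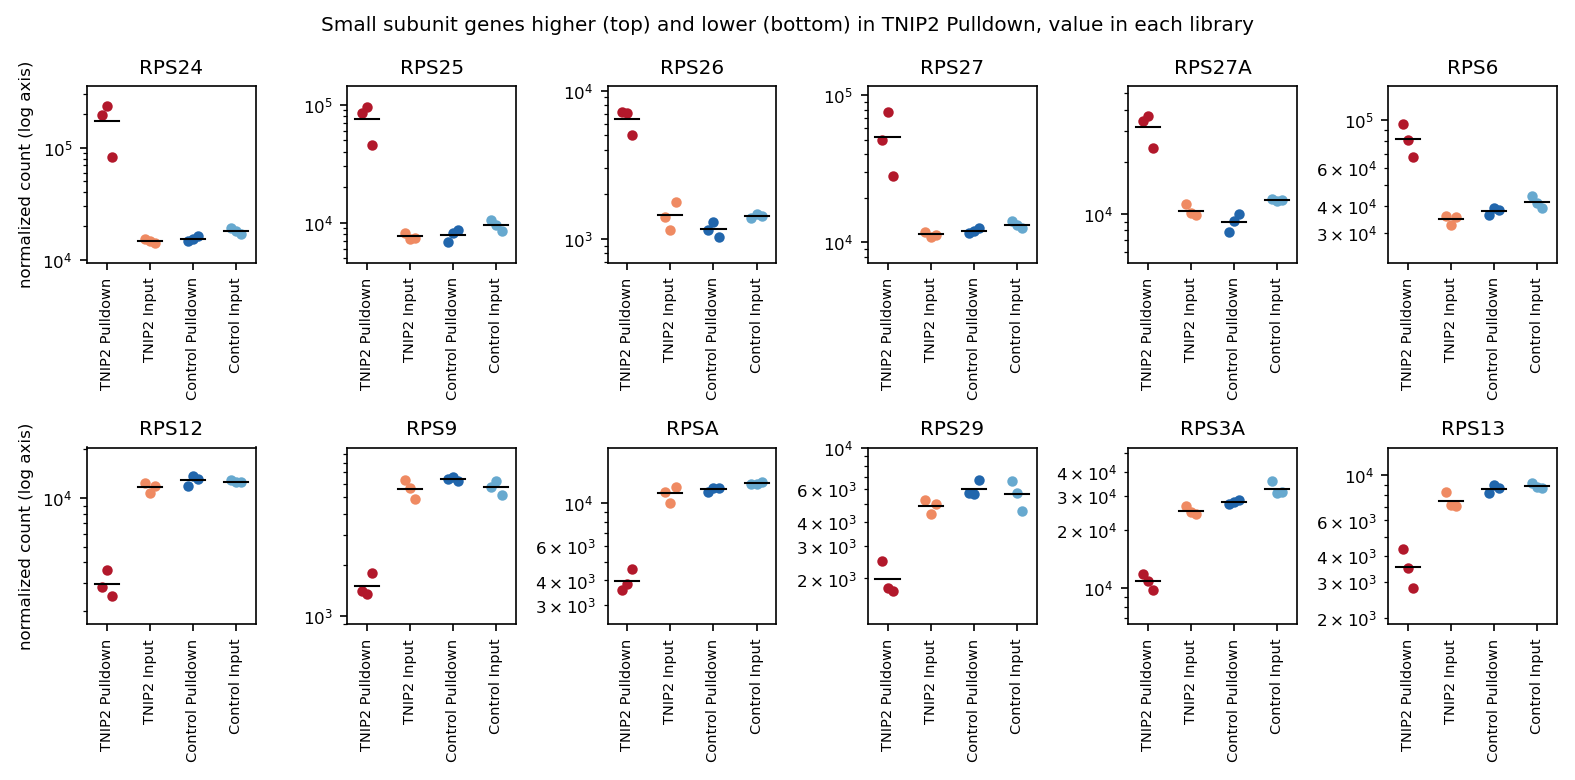
Normalized count (log axis) in each library for 6 small subunit genes that rose (top) and 6 that fell (bottom) in TNIP2 Pulldown over TNIP2 Input; points are libraries and lines are group means of 3. The TNIP2 Pulldown points stand apart from the other 9 libraries in all 12 panels, above them for RPS24 (83149 to 237089) and below them for RPS12 (2486 to 3566).

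RPS12 and RPS9 fell by similar amounts. RPS12, which sits at the beak of the head, had 2828, 3566 and 2486 in TNIP2 Pulldown and 12394, 10768 and 11953 in TNIP2 Input, a change of -2.0 (SE 0.15, adjusted p = 9.3e-08). RPS9, a body protein tied to decoding accuracy in yeast, had 1396, 1343 and 1785 in TNIP2 Pulldown and 6308, 5673 and 4855 in TNIP2 Input, a change of -1.90 (SE 0.15, adjusted p = 1.6e-07). All TNIP2 Pulldown libraries lay below every other library for both genes.

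RPSA, the laminin receptor and a surface protein of the subunit, had 3570, 3843 and 4568 in TNIP2 Pulldown and 11484, 10045 and 12175 in TNIP2 Input. It fell by 1.5 on the log2 scale (SE 0.14, adjusted p = 6.0e-07), and TNIP2 Pulldown 3 was its highest purified library. RPS29, a zinc-binding head protein, had 2474, 1789 and 1709 in TNIP2 Pulldown and 5236, 4424 and 5027 in TNIP2 Input, a change of -1.31. RPS3A, which lies on the platform, had 11859, 10954 and 9760 in TNIP2 Pulldown and 26818, 24722 and 24348 in TNIP2 Input, a change of -1.22. RPS13 had 4371, 3489 and 2786 in TNIP2 Pulldown, against 8293, 7110 and 7087 in TNIP2 Input, a change of -1.10. These 4 genes also kept the call under each of the 24 settings, as did RPS12 and RPS9.

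RPS19, the gene most often mutated in Diamond-Blackfan anemia, and RPS21 had the smallest changes that passed. RPS19 had 13799, 10709 and 10347 in TNIP2 Pulldown and 15741, 14172 and 17121 in TNIP2 Input, for a log2 change of -0.44 (adjusted p = 0.035). RPS21 had 2017, 1931 and 1678 in TNIP2 Pulldown and 3743, 3288 and 1820 in TNIP2 Input, a change of -0.59 (adjusted p = 0.039), and its groups overlapped. The call of RPS19 held in 13 of the 24 settings, with adjusted p up to 0.13, and was lost without Control Input 2, TNIP2 Input 1 or 3, or TNIP2 Pulldown 2 or 3. It was also lost with the replicate number as a block within the TNIP2 libraries, and with both TNIP2 libraries numbered 3 left out. Other settings that lost it were no filter, FPKM, centring on the median gene and only the groups compared. The call of RPS21 held in 15, with adjusted p up to 0.19. It was lost without Control Input 3, TNIP2 Input 1 or 2, or any 1 TNIP2 Pulldown library. No filter, centring on the median gene and only the groups compared lost it as well.

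The other 9 members did not pass the test, with log2 fold changes between -0.32 for RPS20 and 0.23 for RPS4X. RPS3, at the entry of the mRNA channel, had 14866, 15770 and 9762 in TNIP2 Pulldown and 16725, 15743 and 8112 in TNIP2 Input, a change of 0.03 (SE 0.24). Library 3 was the low one in both fractions. RPS4X, from the X chromosome, had 37026, 35789 and 25703 in TNIP2 Pulldown and 30956, 29888 and 22798 in TNIP2 Input. RPS27L, the paralog of RPS27, had 1702, 1253 and 1162 in TNIP2 Pulldown and 1298, 987 and 1620 in TNIP2 Input, a change of 0.09 (SE 0.19), beside 2.08 for RPS27. RPS16 varied most, from 76 to 1463 over the 12 libraries, and its change of -0.25 had an SE of 0.69. RPS2, RPS7, RPS15 and RPS18 lay at 0.22, 0.18, -0.09 and -0.21. RPS20 passed without TNIP2 Pulldown 2 and RPS4X without TNIP2 Pulldown 3. Under quantile normalization RPS2, RPS3, RPS4X, RPS7, RPS15, RPS18 and RPS20 passed as lower, where 57.1% of all genes were called. RPS15, RPS18 and RPS20 also did so under equal sums, where 60.9% were called. Missing the threshold does not show that these genes were equal in both fractions.

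**Figure D3:**
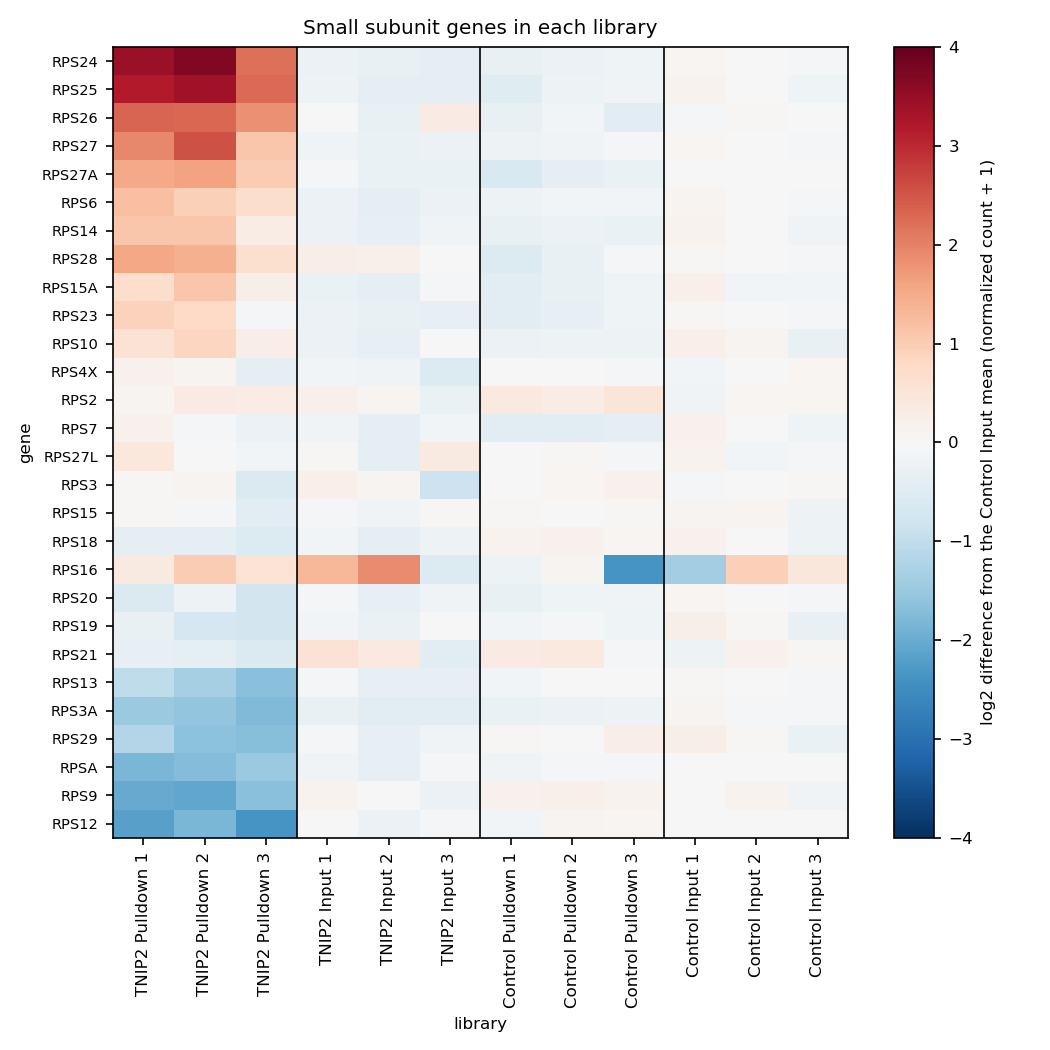
28 of the small subunit genes (rows, ordered by change over TNIP2 Input) in each library (columns), as log2 difference of normalized count + 1 from the mean of Control Input; red is higher and blue is lower. The 3 TNIP2 Pulldown columns carry the pattern, paler in the third for genes that rose, and RPS16 is uneven across all groups.

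The order of the members was alike between the TNIP2 libraries. Across the 31 genes the log2 ratio of TNIP2 Pulldown to TNIP2 Input of the same number had a Pearson r of 0.99 between numbers 1 and 2, 0.916 between 1 and 3 and 0.920 between 2 and 3. Without RPS16 these were 0.989, 0.959 and 0.962. The same ratio for the tag alone had r of 0.134, -0.495 and 0.704 over the 31 genes, and 0.863, 0.400 and 0.508 without RPS16. These values describe genes within libraries of shared depth and carry no test. With both TNIP2 libraries numbered 3 left out, 13 members were higher and 8 lower, where 64.0% of all genes were called.

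Head and body genes of the subunit were counted separately, beside 29.8% of all genes higher and 28.3% lower. Of the 13 measured head genes 4 rose and 4 fell, with a median log2 fold change of -0.21, and of the 17 body genes 9 rose and 5 fell, with a median of 0.84. The difference between these lists was not tested. Against exonic length the change over TNIP2 Input had r of -0.03 and a Spearman rho of -0.09 over the 31 genes, and against the level in TNIP2 Input r was 0.08 and rho 0.18. Median exonic length, as recovered from the tables, was 705 bases in genes that rose, 741 in genes that fell and 956 in the others.

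Few members held much of the small subunit counts in the purified RNA. The 31 genes together made up 4.91 to 7.39% of all normalized counts in TNIP2 Pulldown and 3.51 to 3.99% in TNIP2 Input. They made up 4.01 to 4.24% in Control Pulldown and 4.09 to 4.27% in Control Input. Large subunit genes rose in share too, with 6.55 to 9.36% in TNIP2 Pulldown and 5.12 to 5.91% in TNIP2 Input. RPS24 and RPS25 held 20.8 to 30.0% of the members' sum in TNIP2 Pulldown and 5.63 to 5.75% in TNIP2 Input, against 5.23 to 5.74% in Control Pulldown and 5.97 to 6.32% in Control Input. Both genes were picked as the largest rises in these same libraries, so their larger share restates that choice. RPS24 alone made up 0.658 to 1.57% of a TNIP2 Pulldown library and 0.132 to 0.146% of a TNIP2 Input library.

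**Figure D4:**
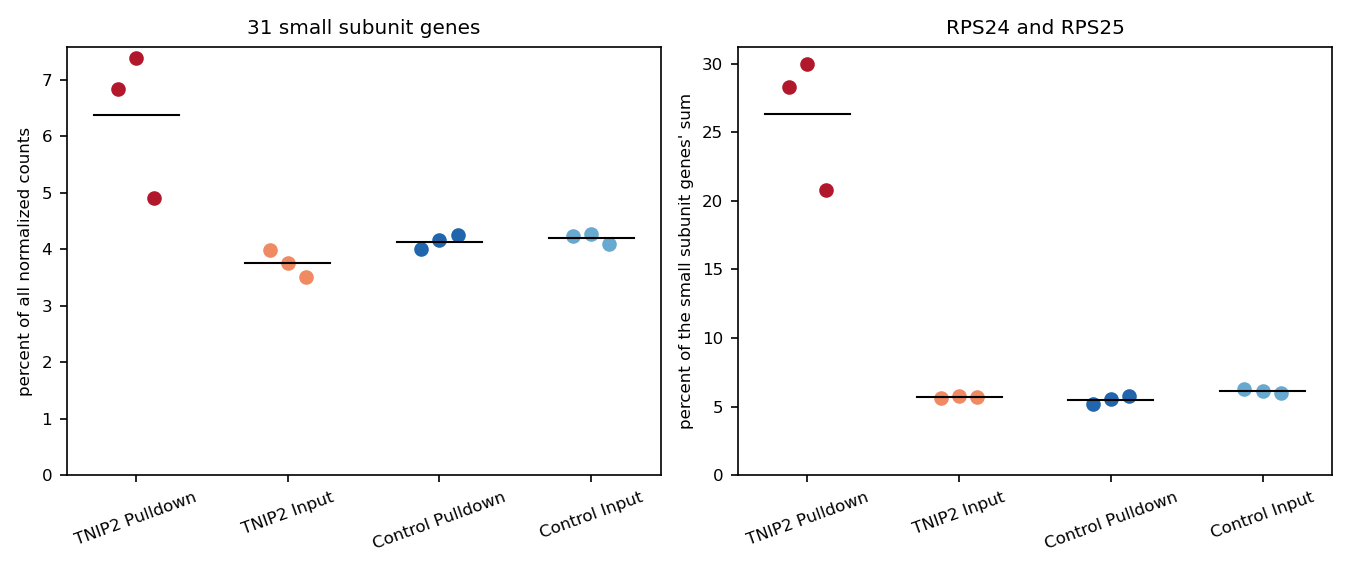
Left, the 31 small subunit genes as a percent of all normalized counts in each library; right, RPS24 and RPS25 as a percent of the 31 genes' sum; points are libraries and lines are means of 3. TNIP2 Pulldown reaches 7.39% on the left and 20.8 to 30.0% on the right, above each of the other groups.

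Per length the levels spread apart as well. FPKM divides reads by exonic length and depth. Recovered exonic lengths ran from 351 to 3314 bases, and whether they match the transcripts sequenced was not tested. Ranks and spread between genes depend on these lengths, which are the same in every group. The SD of log2 FPKM over the members without RPS16 was 1.94 to 2.25 in TNIP2 Pulldown and 1.29 to 1.35 in TNIP2 Input. It was 1.35 to 1.37 in Control Pulldown and 1.35 to 1.36 in Control Input. By mean FPKM, RPS25 at 13542 and RPS27 at 12959 were among the highest members in TNIP2 Pulldown, while TNIP2 Input was led by RPS2, RPS6 and RPS27. RPS24 averaged 5124 FPKM in TNIP2 Pulldown and 436 in TNIP2 Input, with an exonic length of 2962 bases recovered from the tables.

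Set directly against the tag-only purification, members again moved both ways. In TNIP2 Pulldown over Control Pulldown 14 members rose and 10 fell, with a median log2 fold change of 0.11, where 59.4% of all genes were called, 30.6% higher and 28.7% lower. The libraries did not overlap for 15 members above and 10 below, where 31.5% and 29.5% of all genes did so. Quantile normalization gave 9 higher and 16 lower, and equal sums 12 and 15. Of all genes, 58.5% and 62.1% were called under these scalings. The median turned to -0.33 and -0.35 under them and to -0.06 without TNIP2 Pulldown 1. RPS24 rose by 3.35 and RPS25 by 3.20 on the log2 scale, while RPS12 fell by 2.14, RPS9 fell by 2.09 and RPS29 fell by 1.61. RPS18, a head protein, had 21735, 21156 and 19227 in TNIP2 Pulldown, against 30566, 31659 and 29253 in Control Pulldown, a change of -0.56 (adjusted p = 0.0046). RPS7, which is known to bind MDM2, passed at 0.38 (adjusted p = 0.047), a call that held in 7 of 23 settings and was lost without any 1 of 10 libraries, TNIP2 Input 3 and TNIP2 Pulldown 3 being the exceptions. This comparison shares the TNIP2 Pulldown libraries with the first, so its counts are not a separate line of evidence.

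The difference of enrichments is the Pulldown-over-Input change of the fragment minus that of the tag. It was higher for 14 members and lower for 7, with a median of 0.26, where 42.8% of all genes were called, 22.6% higher and 20.2% lower. Without both TNIP2 libraries numbered 3 it was lower for 8 members, where 55.4% of all genes were called. Under quantile normalization 7 were higher and 15 lower, and under equal sums 12 and 13. The median then turned to -0.34 and -0.23, where 41.6% and 46.9% of all genes were called. The differences were 3.65 for RPS24 and 3.51 for RPS25, and -2.06 for RPS9 and -2.02 for RPS12. Called in 1 direction in all 3 comparisons that use TNIP2 Pulldown were 13 higher and 7 lower members. The share of all genes called so was not counted, so these numbers say nothing particular about the members. These comparisons share libraries.

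With the tag alone no member passed. In Control Pulldown over Control Input 0 members were called by limma, 3 had an unadjusted p under 0.05, and voom on recovered reads called 0; 0.137% of all genes were called. The median was -0.17 over the members and -0.01 over all genes. The smallest p values belonged to RPS7, RPS27A and RPS2. RPS7 had 14128, 14080 and 14946 in Control Pulldown and 21643, 18862 and 17169 in Control Input, for a log2 change of -0.41 (SE 0.16). RPS27A had 7793, 9129 and 9923 in Control Pulldown and 12179, 11831 and 11936 in Control Input, a change of -0.43 (SE 0.17). RPS2, at the entry of the mRNA channel, had 56267, 53015 and 60410 in Control Pulldown and 38960, 45457 and 45217 in Control Input, a change of 0.39 (SE 0.16). All Control Pulldown libraries lay below all Control Input libraries for 14 members and above for 1, where 7.15% and 5.83% of all genes did so.

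No member passed between the extracts either. In TNIP2 Input over Control Input 0 members were called by limma, 1 had an unadjusted p under 0.05, and voom on recovered reads called 0; 0.00684% of all genes were called. The median was -0.20. RPS3A had 26818, 24722 and 24348 in TNIP2 Input and 35798, 31352 and 31548 in Control Input, for a log2 change of -0.38 (SE 0.14). RPS6 and RPS18 lay at -0.27 and -0.23. TNIP2 Input lay below Control Input without overlap for 15 members and above it for 0, where 5.32% and 3.62% of all genes did so.

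**Figure D5:**
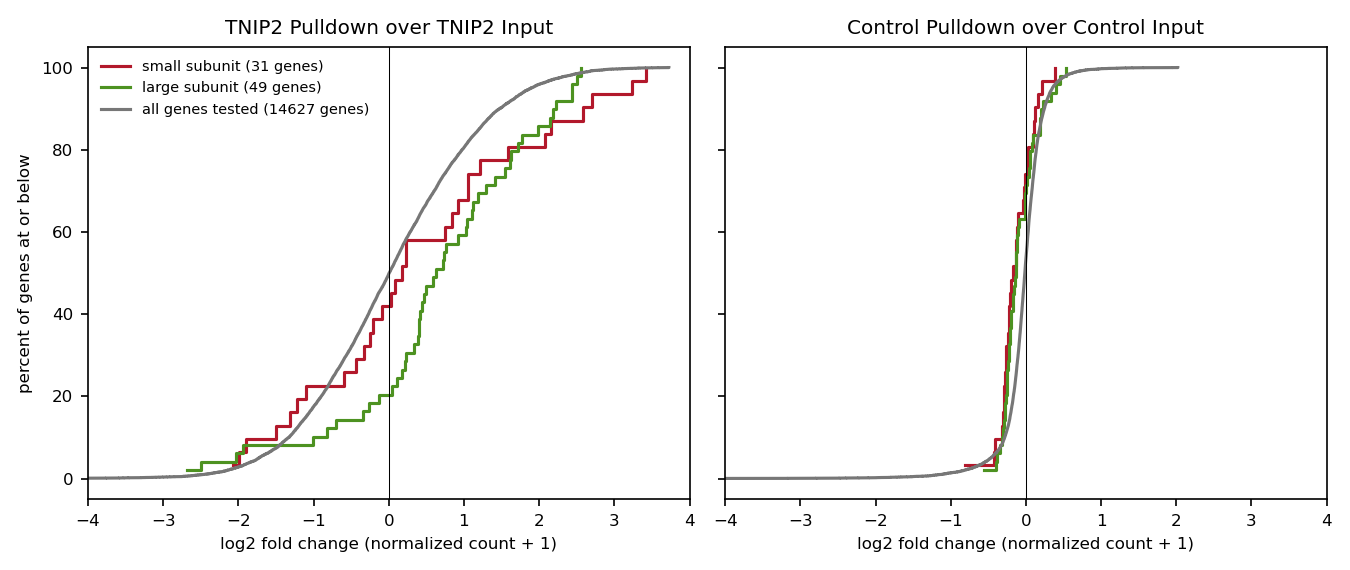
Percent of genes at or below each log2 fold change for the 31 small subunit genes (red), 49 large subunit genes (green) and all 14627 genes tested (grey), with TNIP2 Pulldown over TNIP2 Input at left and Control Pulldown over Control Input at right. With the fragment the small subunit median is 0.18 and the large subunit median 0.63, against 0.01 for all genes, and with the tag alone they are -0.17 and -0.14, against -0.01 for all genes.

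Of 49 large subunit genes, 27 rose and 7 fell in TNIP2 Pulldown over TNIP2 Input, with a median of 0.63, where 29.8% of all genes were higher and 28.3% lower. RPL10A rose by 2.23 and RPL12 by 2.14, while RPL30 fell by 2.49 and RPL39L by 2.69. A difference between the subunits was not tested. FAU, which encodes a small subunit protein as a fusion with a ubiquitin-like protein and falls outside the symbol pattern, fell by 1.52 (SE 0.14, adjusted p = 4.0e-07), the opposite direction to RPS27A. GNB2L1, the scaffold protein RACK1 of the head, lay at -0.10 and did not pass.

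Genes that work with the small subunit were counted in TNIP2 Pulldown over TNIP2 Input, where 29.8% of all genes were higher and 28.3% lower. Shares near these say nothing particular about a list. Of 45 assembly factors 14 rose and 18 fell, with a median of -0.24. The enzymes TSR3, WBSCR22 and EMG1, which modify small subunit rRNA, fell, with log2 fold changes of -1.94, -2.44 and -2.05, and MPHOSPH10, a protein of the U3 particle, rose by 2.14. Of 19 initiation factors that bind the subunit 7 rose and 8 fell. EIF1, which governs start codon choice, rose by 2.79, EIF2S2, a subunit of the factor that brings the initiator tRNA, by 2.42 and EIF3D by 1.80, while EIF3E fell by 1.24. Of 20 other mRNAs with a terminal oligopyrimidine start 9 rose and 5 fell, among them NACA at 1.68, EIF4A2 at 1.65, NPM1 at 1.32 and the elongation factor EEF1A1 at -1.76. Of 13 regulators of ribosomal protein mRNA translation 3 rose and 8 fell, led by the cap-complex inhibitors EIF4EBP2 at -2.33 and EIF4EBP1 at -1.28, LARP4 at -1.31 and CNBP at -1.25. In both control comparisons none of these 4 lists had a called gene.

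Several members carry small nucleolar RNAs in their introns, which guide modification of other RNAs. Of 9 such hosts 2 rose and 4 fell over TNIP2 Input, where 29.8% of all genes were higher and 28.3% lower. The 4 were RPS12, RPSA, RPS3A and RPS13, and with so few hosts these counts say nothing particular about them. The small RNAs did not all follow the host. SNORA33, SNORD100 and SNORD101 of RPS12 lay at 0.56, 0.00 and 0.06 beside -2.0 for the host. SNORA6 of RPSA fell by 2.13, and its difference of enrichments was -1.71 (adjusted p = 0.020). SNORA62 of RPSA fell by 1.24 but lay at -0.79 with the tag alone, and its difference of enrichments of -0.45 did not pass (adjusted p = 0.51). SNORD15A and SNORD15B had log2 fold changes of -2.30 and -2.53 over TNIP2 Input, beside 0.03 for their host RPS3. With the tag alone they lay at -1.35 and -1.65, and their differences of enrichments of -0.95 and -0.87 did not pass (adjusted p = 0.30 and 0.15). Their counts are low, with SNORD15A at 2, 4 and 4 in TNIP2 Pulldown, where rounding to whole numbers is coarse.

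Ribosomal protein genes have many processed copies in the genome, and how reads matching several places were counted is not given in the sources used here. Pseudogene RPS14P3 was called higher at 1.53 (adjusted p = 0.018), beside 1.06 for RPS14, and RPS18P9 lay at -0.34 and did not pass. Values of members with near-identical copies are uncertain, and whether this bears on the uneven RPS16 was not tested.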

How the data were processed

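Per the submitters' processing notes, TopHat2 2.0.14, DESeq2 1.6.3 and hg19 were used; an annotation, strand setting and counter were not given in the sources used here. Normalized count and FPKM tables by gene symbol were deposited by the authors. The deposited normalized count is treated as a score: whole numbers whose median-of-ratios factors lay between 1.00 and 1.01, so division by library factors and rounding is inferred. Reads were recovered from the steps of low FPKM values, 99.6% of 3393 being whole within 0.1 reads, and 1 read was worth 0.511 to 2.86 normalized counts. The steps were fitted to such low values, so the share that is whole is not a separate check. In simulated data 88.9% of values were recovered exactly. In a simulation of TNIP2 Pulldown over TNIP2 Input the fit recovered 143 of 200 changed genes, with 6 false calls.

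Values were log2(normalized count + 1), which understates changes of low genes. All 12 libraries were fitted with group means in limma 3.58.1 (R 4.3.3; lmFit, eBayes with trend, 8 residual degrees of freedom), two-sided, with Benjamini-Hochberg adjustment over 14627 genes holding 10 or more in at least 3 libraries, called under 0.05. The 5 comparisons share groups. A count model planned for raw counts was not used as the main test. The members and lists were chosen with earlier results of these data known.

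Libraries valued singly were those of the 6 highest and 6 lowest changes over TNIP2 Input, the 4 over Control Pulldown, the 3 in the difference of enrichments, the 3 smallest p in each control comparison, and RPS3, RPS6, RPS27, RPS27L, RPS27A, RPS4X and RPSA; other members given so were added after their values were seen, and some members that the rule names are not reported here. Other lists name up to 4 genes of smallest p. Same-numbered TNIP2 Pulldown and TNIP2 Input libraries deviated together (correlations 0.369 to 0.497), so these numbers were taken to pair samples by the data. Libraries of unlike number had -0.447 to 0.274. Between numbers 1 and 2 these were 0.107 and 0.274, so the pairing was clearest for number 3. The main fit did not use it. Between Control Pulldown and Control Input, same-numbered correlations were 0.0744 to 0.0774. Alternatives were the pseudocount, filter, scaling, FPKM, voom on recovered reads with library sizes from the deposited normalization, fewer groups, a replicate block and leaving out libraries.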

Additional observations from a re-analysis of the deposited data

Results flagged for a closer look

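For 21 of the 31 small subunit genes the Pulldown-over-Input change differed between the TNIP2 fragment and the tag alone by limma's interaction test at an adjusted p under 0.05, where 42.8% of all genes tested did so. The difference (TNIP2 minus Control, log2) was above 0 for 14 genes and below 0 for 7. It was 3.65 for RPS24, 3.51 for RPS25, 2.45 for RPS26, 2.21 for RPS27 and 2.02 for RPS27A. It was 1.36 for RPS6, 1.34 for RPS28, 1.33 for RPS14, 1.22 for RPS15A, 1.15 for RPS23, 0.96 for RPS10 and 0.59 for RPS7. It was -2.06 for RPS9, -2.02 for RPS12, -1.43 for RPS29, -1.39 for RPSA, -1.06 for RPS13 and -0.999 for RPS3A. The call of RPS7 held in 8 of 22 other settings. Those of RPS6, RPS28, RPS14, RPS15A, RPS23 and RPS10 were lost under quantile normalization, and that of RPS10 also under equal sums. Of the 21 calls, 14 held in each of the 22 settings, 7 of them higher and 7 lower.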

How the results depend on the processing

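Under quantile normalization TNIP2 Pulldown over TNIP2 Input gave 8 higher and 16 lower members with a median of -0.67, TNIP2 Pulldown over Control Pulldown 9 and 16 with -0.33, and the difference of enrichments 7 and 15 with -0.34. Of all genes, 57.1%, 58.5% and 41.6% were called in these 3 comparisons under quantile normalization. Control Pulldown over Control Input then had 1 higher member, RPS2, where 0.212% of all genes were called. Its median was -0.022, and that of TNIP2 Input over Control Input was -0.033. RPS3, RPS4X, RPS2 and RPS7 turned to -0.67, -0.77, -0.73 and -0.67 over TNIP2 Input, RPS7 to -0.33 over Control Pulldown, and RPS4X and RPS7 to -1.11 and -0.34 in the difference of enrichments. Scaling to equal sums, chosen after seeing the data, moved the median of all genes to -0.41 over TNIP2 Input and gave 12 higher and 12 lower members with a median of -0.25. Over Control Pulldown it gave 12 and 15 with -0.35 and turned RPS7 to -0.077, in the difference of enrichments 12 and 13 with -0.23, and in Control Pulldown over Control Input a median of -0.11. Equal sums called 60.9% of all genes over TNIP2 Input, 62.1% over Control Pulldown and 46.9% in the difference. The median of the difference of enrichments was 0.38 with centring on the median gene. Leaving out single libraries gave 13 to 14 higher and 7 to 9 lower members over TNIP2 Input (median 0.07 to 0.25), 13 to 15 and 8 to 10 over Control Pulldown (-0.06 to 0.22), and 13 to 14 and 7 to 8 in the difference (0.058 to 0.43). Of all genes, 52.5 to 61.2%, 53.7 to 62.8% and 36.6 to 49.5% were called in these fits, in the same order. Without single libraries the medians ranged from -0.25 to -0.11 in Control Pulldown over Control Input. They ranged from -0.26 to -0.14 in TNIP2 Input over Control Input, and 0 members were called in either. With the replicate block 13 members were higher and 9 lower over TNIP2 Input, 13 and 8 within the TNIP2 libraries alone, 15 and 10 over Control Pulldown and 14 and 8 in the difference; RPS16 gained a call over Control Pulldown and RPS21 in the difference, and RPS19 lost its call within the TNIP2 libraries alone. The block called 60.3% of all genes over TNIP2 Input, 62.5% within the TNIP2 libraries alone, 61.4% over Control Pulldown and 45.6% in the difference. Equal sums divides each library by its sum of normalized counts, and the shifts under it follow from these sums. They were 12639745 to 15074851 in TNIP2 Pulldown and 10182326 to 10741368 in TNIP2 Input. In Control Pulldown they were 10196544 to 10284991 and in Control Input 10426000 to 11068819. The cause of the shifts under the other settings was not tested. No result with the planned TMM scaling for voom is given here. Library sizes from the deposited normalization, chosen after seeing the data, took its place. RPS16 had as few as 30 reads, in Control Pulldown 3, and differed between the deeper Control Input libraries too (147 to 758 normalized counts).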
